A study of Mus musculus with 6 samples.

Results

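The Hox genes encode homeodomain transcription factors that lie in clusters A, B, C and D. They were chosen by name, as non-control probes for Hoxa, Hoxb, Hoxc or Hoxd followed by a number. The 42 probes for 38 genes described here came out of 55681 non-control probes with 34797 names. A probe counts as well above background when the scanner software marked it so. Of the 38 genes, 24 had a probe that met this mark on 3 arrays or more and were tested, among 21478 genes tested in all. The other 14 were too dim for a test and are described by detection alone. Fetal aortic arteries of C57BL/6 mice were taken at E18.5, shortly before birth, and hybridised to Cy3 expression arrays, with 3 arrays from Nod1 +/- and 3 from Nod1 -/- littermates. All fetuses were carried by Nod1 -/- dams mated with Nod1 +/- males, and every dam had received FK565, which activates NOD1, under the skin 6 h earlier at a dose of 500 µg. There were no arrays from dams without the ligand, so both genotypes shared the maternal genotype and the injection, and a response to FK565 cannot be told apart from a standing genotype difference. Whether an array held 1 fetus or several was not given in the sources used here, so p-values measure only the spread between these samples, and the number of arrays limits the precision.

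Within a cluster the genes are numbered by paralog group from the anterior end, and genes of low number are switched on earlier and further towards the head of the embryo than genes of high number. The combination that a cell keeps later in life records the level of the body axis from which it came, and vascular smooth muscle, fibroblasts, nerves and muscle around a vessel each carry a combination of their own. Hox proteins bind DNA together with PBX and MEIS partners, retinoic acid switches on anterior members, and Polycomb and trithorax complexes hold the silent and active state.

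The probes of each cluster lay close together on the mm9 build: cluster A over 96.4 kb of chromosome 6 (52112595 to 52209039), cluster B over 170.7 kb of chromosome 11 (96057854 to 96228510), cluster C over 108.2 kb of chromosome 15 (102759058 to 102867272) and cluster D over 93.8 kb of chromosome 2 (74509248 to 74603059). Cluster A shared chromosome 6 with Nod1, whose probe lay 2.66 Mb away (54874007 to 54874066, minus strand). RefSeq promoter windows on GRCm38.p6, from 250 bases before to 50 bases after a gene's start, were matched by symbol for 22 of the 38 genes. The 300-base window of Hoxa2 is shown because Hoxa2 was among the genes that differed between genotypes, and that of Hoxd10 because its difference had the opposite sign. The windows are written 5′ to 3′ on the gene's strand. Capitals mark TGATNNAT in Hoxa2 (chr6:52164782-52165081, minus strand), a motif bound by HOX and PBX proteins together, and AGGTCA in Hoxd10 (chr2:74691641-74691940, plus strand), a nuclear-receptor hexamer such as retinoic acid receptors bind. Both matches lie on the opposite strand, so that the capitals read as the reverse complement.
Hoxa2: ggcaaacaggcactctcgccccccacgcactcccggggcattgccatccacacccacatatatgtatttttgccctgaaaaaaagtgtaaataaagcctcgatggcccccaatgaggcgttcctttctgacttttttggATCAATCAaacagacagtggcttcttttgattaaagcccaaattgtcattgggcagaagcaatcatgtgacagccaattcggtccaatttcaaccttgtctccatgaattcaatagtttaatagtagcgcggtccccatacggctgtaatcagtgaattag
Hoxd10: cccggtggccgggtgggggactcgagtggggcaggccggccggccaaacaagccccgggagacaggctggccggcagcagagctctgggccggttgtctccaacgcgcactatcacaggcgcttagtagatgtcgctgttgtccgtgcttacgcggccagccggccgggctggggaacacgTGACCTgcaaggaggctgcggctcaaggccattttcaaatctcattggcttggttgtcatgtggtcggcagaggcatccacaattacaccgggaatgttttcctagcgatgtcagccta
On either strand, TGATNNAT occurred in 8.85% of all 32851 windows and in 4 of 24 windows of Hox genes (Hoxa2, Hoxb1, Hoxb8 and Hoxd11). AGGTCA occurred in 16.3% of all windows and in 7 of the 24 (Hoxa5, Hoxb4, Hoxc4, Hoxd3, Hoxd4, Hoxd8 and Hoxd10). The TATA sequence TATAAA occurred in 13.6% of all windows and in 4 of the 24 (Hoxa10, Hoxb8, Hoxd4 and Hoxd13). None of these motifs contains another on either strand, and a match describes letters only. The median window of a Hox gene held 14.5 CpG pairs, against 7 over all windows, and those shown held 9 (Hoxa2) and 22 (Hoxd10).

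Values are log2 signal minus the array's 75th percentile, called the level here. A level is compared between arrays for the same probe, never between probes. Signal was well above background for 48.6% to 54.7% of all probes on the Nod1 +/- arrays and 53.7% to 58.3% on the Nod1 -/- arrays. All 6 arrays lay on 1 slide, with Nod1 -/- replicates 1 and 2 in row 1 and the other 4 arrays in row 2. Nod1 itself, read by 1 probe, was at 3.15, 3.20 and 3.78 on the Nod1 +/- arrays and at 3.20, 3.19 and 3.35 on the Nod1 -/- arrays. Which part of Nod1 was deleted was not given in the sources used here, and a probe outside the deletion would check nothing. All 10 smooth muscle markers, among them Myh11, Acta2 and Tagln, and all 10 endothelial markers were bright enough to be tested.

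Detection of the Hox genes followed paralog number. On all 6 arrays, 20 genes were well above background: 8 of the 11 genes of paralog groups 1 to 4, 10 of the 11 genes of groups 5 to 8, and 2 of the 16 genes of groups 9 to 13. In cluster A these ran without a gap from Hoxa2 to Hoxa7 and included Hoxa9, and in cluster B they ran from Hoxb2 to Hoxb9. In cluster C they were Hoxc4, Hoxc5 and Hoxc6, and in cluster D they were Hoxd4 and Hoxd8. Groups 2, 4, 5, 6 and 7 were detected on every array for each of their genes. By contrast, no gene of group 13 was well above background on any array, and of group 11 only Hoxd11 was, on 1 array.

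**Figure D1:**
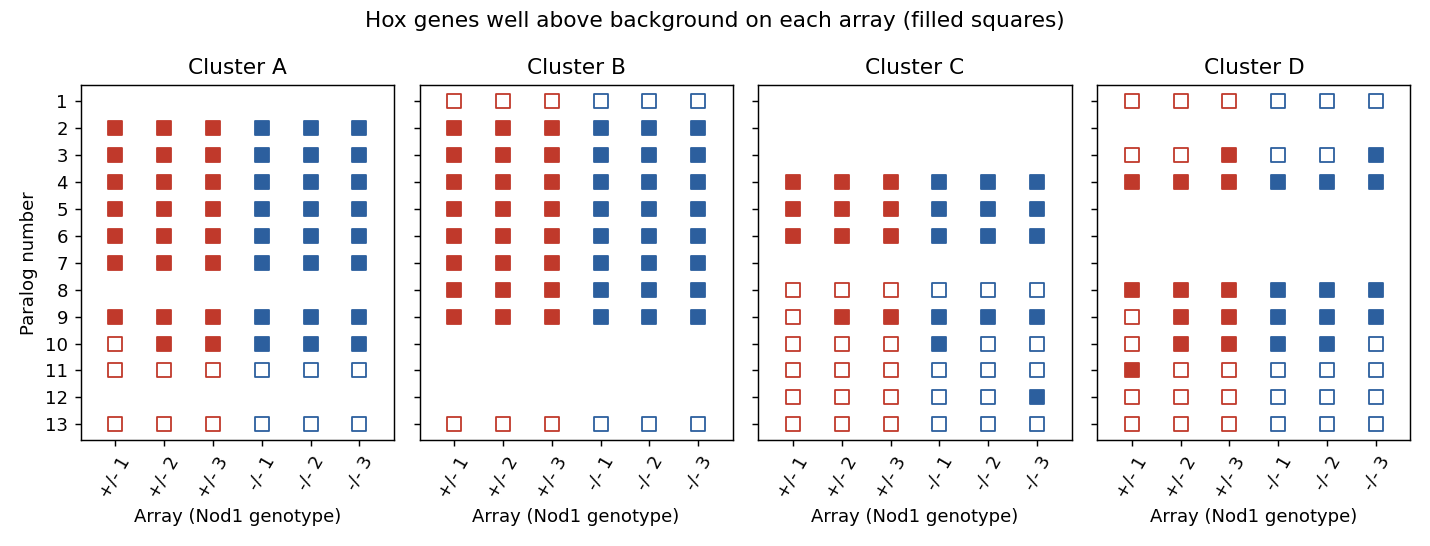
Detection of the 38 Hox genes on each array, with paralog number down the vertical axis, a column for each array (Nod1 +/- in red, Nod1 -/- in blue) and a panel for each cluster; filled squares mark a gene with a probe well above background, open squares a gene without one, and blank positions have no gene shown. Groups 2 to 7 are filled on all 6 arrays except for Hoxd3, and group 13 is open on all 6.

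In all, 10 genes were well above background on no array: Hoxa11, Hoxa13, Hoxb1, Hoxb13, Hoxc8, Hoxc11, Hoxc13, Hoxd1, Hoxd12 and Hoxd13. Hoxb1 and Hoxd1 are anterior genes used in the hindbrain and early embryo, and the group 11 to 13 genes pattern the limbs, the urogenital tract and the tail end of the trunk. Hoxc8, a gene of the thoracic trunk, was the only undetected member of groups 5 to 8. An undetected probe does not show that a gene was silent, and most of these genes were read by 1 probe.

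The genes at the edge of detection differed from array to array. Hoxa10, Hoxc9 and Hoxd9 were each well above background on 5 arrays, and Hoxd10 was so on 4. Hoxd3 was detected on Nod1 +/- replicate 3 and Nod1 -/- replicate 3. Hoxc10 was detected on Nod1 -/- replicate 1 alone, and Hoxc12 on Nod1 -/- replicate 3 alone. Hoxd11 was detected on Nod1 +/- replicate 1 alone, at -2.34 against -5.18 or less on the other 5 arrays. The second Hoxd11 probe was well above background on no array, so the 2 probes of this gene disagreed on that array. Each of these last 3 genes rests on 1 spot reading, and no array carried more than 1 of them.

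The highest paralog number detected was 9 in cluster B on all 6 arrays. In cluster A it was 9 on Nod1 +/- replicate 1 and 10 on the other 5. In cluster C it was 6, 9 and 9 on Nod1 +/- replicates 1 to 3, and 10, 9 and 12 on Nod1 -/- replicates 1 to 3. In cluster D it was 11, 10 and 10, and 10, 10 and 9, in the same order. The number of Hox genes well above background was 21, 24 and 25 on the Nod1 +/- arrays and 25, 24 and 25 on the Nod1 -/- arrays. Thus every array carried transcripts of groups 2 to 9, and the lowest count came from the array with the lowest share of all probes well above background.

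Between genotypes, 2 of the 24 tested Hox genes passed the threshold (limma, Benjamini-Hochberg adjusted p under 0.05 over all genes tested), and both were lower in Nod1 +/- aortas: Hoxa2 and Hoxb2. These are the genes of group 2, known for patterning the hindbrain and the neural crest of the pharyngeal arches, from which part of the smooth muscle of the aortic arch derives. Over all genes tested, 18.7% passed, with 11% of all genes lower and 7.66% higher, so the share of Hox genes past the threshold was no larger than the background. Of the 24, 21 had a difference below 0 (87.5%, against 60.1% of all genes), or 19 when arrays were scaled to the median over all non-control probes, which put Hoxa5 and Hoxb4 above 0. The median difference was -0.40, against -0.10 over all genes. Blocked by slide row it was -0.10 against -0.08, and without the first replicate of both genotypes -0.15 against -0.09. Values of the 2 genotypes did not overlap for 7 of the 24, with 6 lower (Hoxa2, Hoxa9, Hoxb2, Hoxb3, Hoxb5 and Hoxb6) and 1 higher (Hoxd10) in Nod1 +/-. Among all genes 42.4% did not overlap, 26.1% lower and 16.3% higher. In whole vessels, fewer cells of a type and less RNA per cell cannot be told apart.

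**Figure D2:**
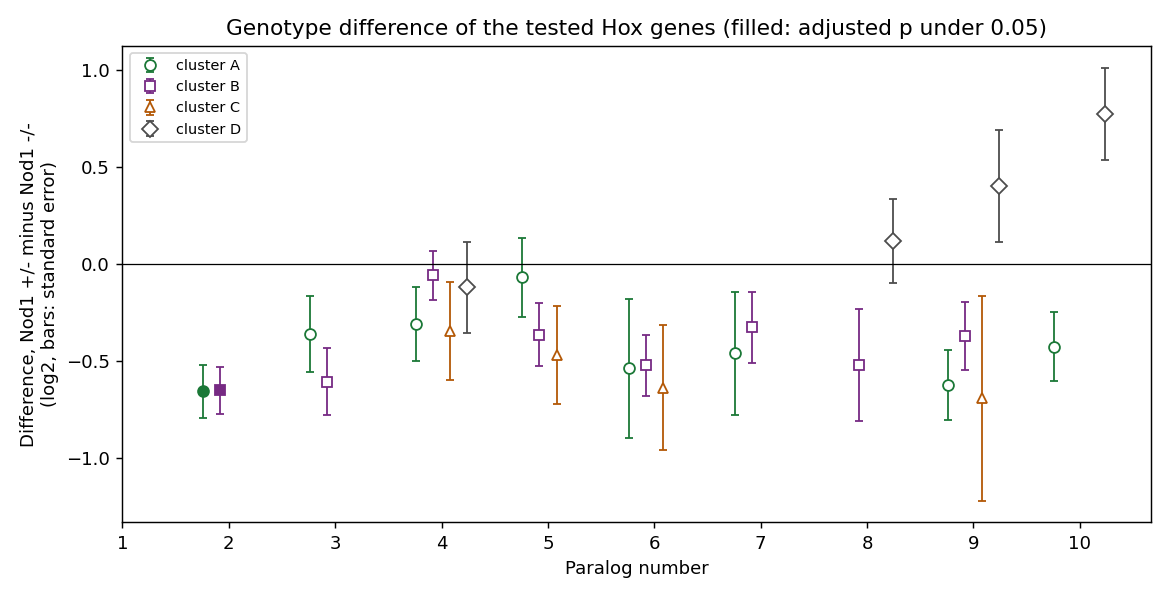
Difference in level (Nod1 +/- minus Nod1 -/-, log2) of the 24 tested Hox genes against paralog number, with a colour and symbol for each cluster and bars of 1 standard error from limma; filled points passed the adjusted threshold of 0.05. The points run from -0.69 (Hoxc9) to 0.77 (Hoxd10), and the 3 points above 0 all belong to cluster D.

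Hoxa2, which specifies the second pharyngeal arch (chromosome 6, 52112595 to 52112654, minus strand), was at -0.04, -0.09 and 0.24 on the Nod1 +/- arrays and at 0.63, 0.86 and 0.57 on the Nod1 -/- arrays. The genotypes did not overlap, and Nod1 +/- replicate 3 came nearest to the Nod1 -/- arrays. The means were 0.03 ± 0.18 and 0.69 ± 0.15 (SD, n = 3), a level 1.57-fold lower in Nod1 +/- (log2 -0.65, standard error 0.14; limma adjusted p = 0.0249).

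Hoxb2, its paralog in cluster B (chromosome 11, 96215122 to 96215181, plus strand), was at 0.66, 0.72 and 0.95 on the Nod1 +/- arrays and at 1.56, 1.36 and 1.35 on the Nod1 -/- arrays. Again Nod1 +/- replicate 3 was the highest of its genotype, and the genotypes did not overlap. The means were 0.78 ± 0.16 and 1.43 ± 0.12 (SD, n = 3), a level 1.57-fold lower in Nod1 +/- (log2 -0.65, standard error 0.12; limma adjusted p = 0.0185). A fit with slide row as a block compares the 3 Nod1 +/- arrays with the only Nod1 -/- array beside them in row 2. The differences in that fit were -0.54 for Hoxa2 (limma adjusted p = 0.187) and -0.58 for Hoxb2 (adjusted p = 0.143). Row 1 held Nod1 -/- arrays only. The differences also depended on single arrays: neither gene passed when any of replicates 1 and 2 of either genotype was left out. The adjusted p then lay between 0.0691 and 0.0846 for Hoxa2 and between 0.0624 and 0.0658 for Hoxb2. Without the first replicate of both genotypes the differences were -0.65 for Hoxa2 and -0.52 for Hoxb2 (limma adjusted p = 0.175 and 0.179).

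**Figure D3:**
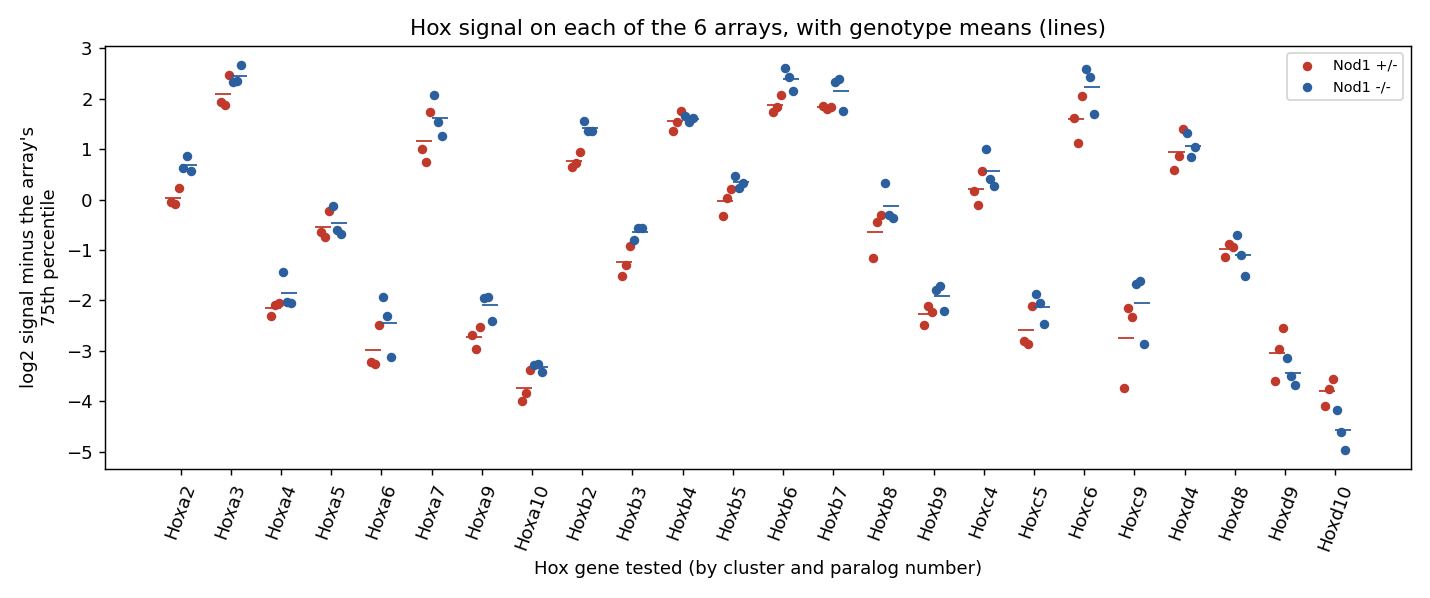
Level (log2 signal minus the array's 75th percentile) of the 24 tested Hox genes on each array, in order of cluster and paralog number; points are arrays, replicates 1 to 3 from left to right within a genotype, and short lines are genotype means. The genotypes are apart for 7 genes, Hoxa2 and Hoxb2 among them, and overlap for the rest, and heights of different genes are not comparable.

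In cluster A all 8 tested genes had differences below 0 in the first fit (Hoxa5 and Hoxa6 changed sign in others), with a median of -0.44. Hoxa9, which acts in the trunk and in blood progenitors, differed by -0.62 (limma adjusted p = 0.0608) without overlap. Its second kept probe was well above background on 1 Nod1 +/- array and 3 Nod1 -/- arrays. That probe was thus kept through its Nod1 -/- signal, and no size is given. Hoxa3, a gene of the third pharyngeal arch and its arteries, differed by -0.36 (adjusted p = 0.237). Hoxa5 differed by -0.07 (95% confidence interval -0.56 to 0.43), the difference nearest 0 in its cluster. Hoxa4 and Hoxa7 differed by -0.31 and -0.46 and did not pass.

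The most variable gene of cluster A was Hoxa6, at -3.23, -3.26 and -2.48 on the Nod1 +/- arrays and at -1.93, -2.31 and -3.11 on the Nod1 -/- arrays. The genotypes overlapped, because Nod1 -/- replicate 3 lay among the Nod1 +/- arrays (log2 difference -0.54, standard error 0.36; limma adjusted p = 0.325). Within slide row 2 its difference was 0.13, of opposite sign. Hoxa10, the highest-numbered gene tested in cluster A, was at -4.001, -3.84 and -3.38 on the Nod1 +/- arrays and at -3.27, -3.25 and -3.43 on the Nod1 -/- arrays. Only Nod1 +/- replicate 3 reached the Nod1 -/- values (difference -0.42, standard error 0.18; limma adjusted p = 0.144).

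In cluster B all 8 tested genes also had differences below 0 (Hoxb4 and Hoxb7 changed sign in other fits), with a median of -0.44. Hoxb3, expressed in arch arteries and hindbrain, differed by -0.60 (limma adjusted p = 0.0598) and Hoxb6 by -0.52 (adjusted p = 0.0681), both without overlap. The second kept probe of Hoxb3 differed by -0.29. Hoxb5 and Hoxb7, trunk genes, differed by -0.36 and -0.32 and did not pass. Hoxb4 stood at the other end, with a difference of -0.06 (95% confidence interval -0.37 to 0.25). Its standard deviation over the 6 arrays was the smallest among the tested Hox genes, at the 15.4th percentile of all genes tested.

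Hoxb8 was the most variable gene of cluster B, at -1.15, -0.45 and -0.31 on the Nod1 +/- arrays and at 0.32, -0.32 and -0.37 on the Nod1 -/- arrays. Nod1 +/- replicate 1 lay far below the rest and Nod1 -/- replicate 1 far above, while the other 4 arrays lay close together (difference -0.52, standard error 0.29; limma adjusted p = 0.249). Hoxb9, the most posterior gene detected in the cluster, was at -2.50, -2.10 and -2.23 on the Nod1 +/- arrays and at -1.80, -1.71 and -2.21 on the Nod1 -/- arrays. The genotypes overlapped through Nod1 -/- replicate 3 (difference -0.37, standard error 0.18; limma adjusted p = 0.19).

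In cluster C 4 of 9 genes were tested, and their median difference was -0.55 with none past the threshold. Hoxc4, Hoxc5 and Hoxc6, genes of the neck and upper trunk, differed by -0.35, -0.47 and -0.64 with overlap. Hoxc9, a gene of the lower thoracic trunk, was the most variable of the 24, at -3.74, -2.16 and -2.32 on the Nod1 +/- arrays and at -1.68, -1.61 and -2.86 on the Nod1 -/- arrays. It was lowest on Nod1 +/- replicate 1, where it was not well above background, and lowest among the Nod1 -/- arrays on replicate 3. The difference of -0.69 had the largest standard error among the Hox genes, 0.53 (limma adjusted p = 0.387), and became 0.12 within slide row 2. It was -0.19 without Nod1 +/- replicate 1 and -1.10 without Nod1 -/- replicate 3.

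In the first fit cluster D held the only tested Hox genes with differences above 0. Hoxd4 differed by -0.12, Hoxd8 by 0.12, Hoxd9 by 0.40 and Hoxd10 by 0.77, and none passed the threshold. Hoxd10, a gene of the lumbar and limb levels, was at -4.10, -3.76 and -3.56 on the Nod1 +/- arrays and at -4.17, -4.60 and -4.96 on the Nod1 -/- arrays. The genotypes did not overlap, by a margin of less than the spread within either, and the probe was not well above background on the lowest array of each, Nod1 +/- replicate 1 and Nod1 -/- replicate 3. The means were -3.80 ± 0.27 and -4.58 ± 0.40 (SD, n = 3), with a difference of 0.77 (standard error 0.24; limma adjusted p = 0.0719). Hoxd10 and Hoxd9 stayed above 0 in each of 20 fits, the first included, whereas Hoxd8 was below 0 in 2 of 21. The difference between cluster D and the other clusters was not tested.

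Each array was then described by the deviation of its levels from the 6-array mean, averaged over the 24 tested genes. The deviation was -0.39, -0.23 and 0.13 on the Nod1 +/- arrays and 0.40, 0.18 and -0.09 on the Nod1 -/- arrays. Nod1 -/- replicate 1 had the highest level of 12 of the 24 genes and the lowest of none, and Nod1 +/- replicate 1 had the lowest level of 11 and the highest of none. Replicate 3 of each genotype lay nearest the other genotype: Nod1 +/- replicate 3 was the highest of its genotype for 20 genes, and Nod1 -/- replicate 3 the lowest of its genotype for 19.

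By paralog group, the mean deviation of groups 1 to 4 (8 genes) was -0.37, -0.29 and 0.08 on the Nod1 +/- arrays and 0.31, 0.13 and 0.14 on the Nod1 -/- arrays. The genotypes did not overlap there, but they did when every Hox probe was averaged, dim ones included (0.11 on Nod1 +/- replicate 3, 0.004 on Nod1 -/- replicate 2). That of groups 5 to 8 (10 genes) was -0.37, -0.32 and 0.13, and 0.52, 0.20 and -0.15. That of groups 9 to 13 (6 genes) was -0.46, 0.01 and 0.22, and 0.31, 0.21 and -0.28. The genotypes overlapped in both later blocks, where replicate 3 of each changed places. The difference between the genotype means was -0.39, -0.38 and -0.16 in that order, and -0.27, -0.41 and 0.008 over every Hox probe.

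The balance of posterior over anterior genes, taken as the deviation of groups 9 to 13 minus that of groups 1 to 4, was -0.09, 0.30 and 0.13 on the Nod1 +/- arrays and -0.002, 0.08 and -0.43 on the Nod1 -/- arrays. Nod1 -/- replicate 3 was the lowest and Nod1 +/- replicate 2 the highest. Of the 6 posterior genes, 4 (Hoxa10, Hoxc9, Hoxd9 and Hoxd10) were not well above background on Nod1 +/- replicate 1. In cluster C the deviations were -0.58, -0.39 and 0.16, and 0.62, 0.41 and -0.23, and in cluster D they were -0.20, 0.18 and 0.45, and 0.20, -0.22 and -0.41.

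**Figure D4:**
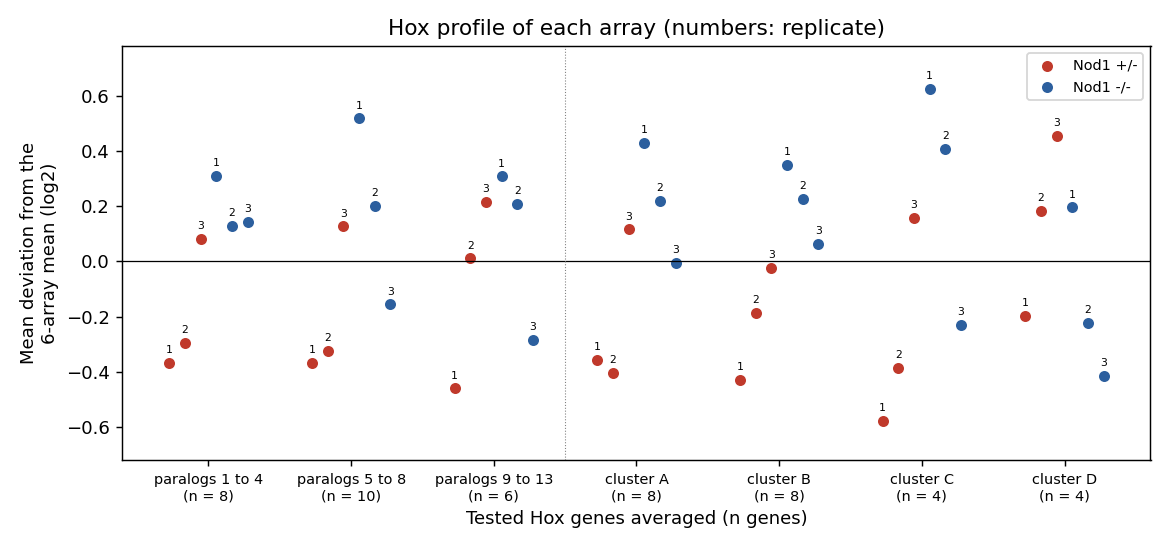
Mean deviation of each array from the 6-array mean level (log2) over the tested Hox genes of paralog groups 1 to 4, 5 to 8 and 9 to 13 and of clusters A, B, C and D; points are arrays labelled by replicate number and coloured by genotype. The genotypes are apart in groups 1 to 4 for these tested genes, though not over every Hox probe, and overlap in groups 9 to 13, and in cluster D the order of the genotype means is the reverse of that in cluster A.

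Transcripts of neighbouring tissues moved over the same arrays, and their part in the Hox results was not tested. Summed levels of marker lists (log2 of the summed scaled signal) are given as ranges. For Schwann cells, 7 of 10 markers were tested and 3 were lower in Nod1 +/- (S100b, Pmp22 and Fabp7), with summed levels of 4.91 to 4.94 against 5.58 to 5.83. Sox10 and Mbp differed by 0.33 and -0.09 without passing. Erbb3 and Cdh19 were among those too dim for a test. For fibroblasts and adventitia, 4 of 10 were lower (Lum, Ogn, Dcn and Mfap5), at 9.69 to 9.75 against 10.0 to 10.2, while Pdgfra, Fbln1 and Col1a1 differed by 0.16, 0.09 and 0.02 without passing. Of cartilage markers 3 of 6 tested were lower (Hapln1, Col9a1 and Sox9), at 2.63 to 3.42 against 2.86 to 3.68. Acan, the brightest of them, differed by 0.06 and Col11a1 by -0.36 without passing, and Col2a1 did not pass either. Of endothelial markers 3 of 10 were lower (Tek, Tie1 and Cldn5), at 6.61 to 7.01 against 6.80 to 6.95. Without passing, Cdh5, Egfl7, Sox17 and Kdr differed by 0.30, 0.10, 0.06 and 0.02, and Pecam1, Emcn and Esam by -0.26, -0.21 and -0.30. Of mesothelial markers 2 of 8 were lower (Gpm6a and Lrrn4), at 3.52 to 4.84 against 4.11 to 4.51. Among these 8, Wt1 differed by 0.08 without passing, and the median difference was -1.47. The share of all genes that were lower was 11%. The mean deviation of the Schwann, fibroblast, cartilage and endothelial lists was lower on every Nod1 +/- array than on any Nod1 -/- array. So was that of the tested anterior Hox genes, though not over every Hox probe. Of all genes taken singly, 26.1% did not overlap in this direction. The summed levels of the cartilage and endothelial lists did overlap. Smooth muscle markers lay at 10.03 to 10.13 on the Nod1 +/- arrays and 10.07 to 10.15 on the Nod1 -/- arrays, with overlap, and 0 of 10 passed by limma.

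Single arrays stood apart for muscle and nerve. Of cardiac muscle markers 9 of 10 were tested and 0 passed by limma, with Nppb too dim. Their summed levels were 9.63, 9.56 and 9.06 on the Nod1 +/- arrays and 8.61, 9.31 and 9.53 on the Nod1 -/- arrays. Replicate 1 of Nod1 +/- was the highest and replicate 1 of Nod1 -/- the lowest, the reverse of the mean Hox deviation. Skeletal muscle markers (8 of 10 tested, 0 past the threshold by limma; Mylpf and Myog too dim) had summed levels of 9.22, 5.60 and 4.95 on the Nod1 +/- arrays and 4.66, 5.18 and 5.45 on the Nod1 -/- arrays, so that replicate 1 of Nod1 +/-, the lowest array for Hox genes, was the highest for these. Sympathetic neuron markers (8 of 10 tested, 0 past the threshold; Chrna3 and Slc18a1 too dim) had 4.04, 2.92 and 2.41 against 5.88, 4.07 and 3.02. Sensory and spinal neuron markers (6 of 10 tested, 0 past the threshold; Pou4f1, Isl2, Scn9a and Olig2 too dim) had 1.22, -0.42 and -0.16 against 3.16, 1.09 and 0.29. On Nod1 -/- replicate 1 both neuronal lists and the Hox genes were highest, and replicate 3 was the lowest Nod1 -/- array for all 3. The Nod1 +/- arrays did not share this order. Among them replicate 1 was the highest for both neuronal lists but the lowest for the Hox genes (mean deviation -0.39). The part of muscle and nerve in the order of the arrays was not tested.

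Other transcripts of the clusters were taken from probes lying inside the spans given above, a choice made after the data had been seen. There were 39 such probes with 22 names, and 20 were kept by the same rule on background. Of these 2 were lower in Nod1 +/-, 16 had a difference below 0, and the median was -0.22. Over all 30166 kept probes 15.9% passed in either direction and 9.12% passed as lower, 59.1% had a difference below 0, and the median was -0.09. The first lay in cluster B between the probes of Hoxb7 and Hoxb6 (ENSMUST00000150698; chromosome 11, 96152394 to 96152453, minus strand, opposite to these genes). The array file describes it as a RIKEN cDNA that the RefSeq gene table lists under Hoxb5os, a long noncoding RNA. Its levels were 0.14, 0.14 and 0.15 on the Nod1 +/- arrays and 1.15, 1.21 and 1.15 on the Nod1 -/- arrays. The genotypes were far apart and nearly without spread (log2 difference -1.03, standard error 0.09; limma adjusted p over all probes = 0.00231). The Hox genes beside it, Hoxb5, Hoxb6 and Hoxb7, did not pass.

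The second lay in cluster A on the plus strand, overlapping the Hoxa3 probe on the minus strand (ENSMUST00000155922; chromosome 6, 52119107 to 52119166), and is listed under Hoxaas2 in the same table. Its levels were -1.45, -1.44 and -1.11 on the Nod1 +/- arrays and -0.80, -0.87 and -0.79 on the Nod1 -/- arrays. All Nod1 +/- arrays lay below all Nod1 -/- arrays (difference -0.51, standard error 0.13; limma adjusted p over all probes = 0.0440). Hoxaas3, a noncoding transcript of the middle part of cluster A, differed by -0.78 without passing. Hoxa11as, an antisense transcript of the posterior part, did not pass either. Only 1 of its 3 Nod1 +/- readings was well above background, so no size is given. The 5 probes for HOTAIR, a noncoding RNA of cluster C, were well above background on no array.

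Among 9 cofactors that bind DNA with HOX proteins, 3 passed the threshold, where 18.7% of all genes did, and the list's median was -0.02 against -0.10 over all genes. Meis1, a cofactor of many HOX proteins, was at 2.79, 2.72 and 3.10 on the Nod1 +/- arrays and at 3.42, 3.49 and 3.56 on the Nod1 -/- arrays (difference -0.62, standard error 0.13; limma adjusted p = 0.025). As for Hoxa2 and Hoxb2, the genotypes did not overlap and Nod1 +/- replicate 3 was nearest. Pbx4, of the PBX family, was also lower (limma adjusted p = 0.00892). Only 1 of its 3 Nod1 +/- readings was well above background, so it was tested through its Nod1 -/- signal and no size is given. Pknox2, a relative of MEIS proteins, was higher in Nod1 +/- (difference 0.58; adjusted p = 0.0209).

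Of the retinoic acid pathway 15 of 17 genes were tested, with 3 higher and 2 lower (7.66% and 11% of all genes) and a median of 0.15, against -0.10 over all genes. Rdh10, which makes retinaldehyde, and Cyp26b1, which breaks retinoic acid down, were higher in Nod1 +/- by 1.39 and 1.38 (limma adjusted p = 0.0231 and 0.0137). Stra6, a retinol transporter, was also higher (adjusted p = 0.0249), but 1 of its 3 Nod1 -/- readings was well above background, so it was tested through its Nod1 +/- signal and no size is given. Crabp2, which carries retinoic acid to its receptor, and Aldh1a1, which makes it, were lower (differences -0.93 and -0.92; limma adjusted p = 0.00935 and 0.0168).

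All 21 Polycomb and trithorax genes were tested. Wdr5, a core part of the trithorax methyltransferases, was higher in Nod1 +/- (difference 0.68, limma adjusted p = 0.00597). So was Cbx2, a Polycomb reader of histone methylation (difference 0.56, limma adjusted p = 0.0452). None was lower, and the median was -0.05. Over all genes 7.66% were higher, 11% were lower and the median was -0.10. Among axial patterning genes outside the clusters 7 of 19 were tested and none passed by limma. The smallest p-values were those of Isl1, of motor neurons and the heart field (difference -1.59; adjusted p = 0.0656), and Hand2, of the neural crest and sympathetic neurons (difference -0.89; adjusted p = 0.182). Cdx1, Cdx2 and Cdx4, the caudal genes that switch on posterior Hox genes, were too dim for a test.

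Genes flanking the clusters gave a comparison with the surrounding chromosome. Of 22 such genes 19 were tested, with 2 higher and 2 lower in Nod1 +/- and a median of -0.09. Nfe2l1, beside cluster B, and Nfe2, beside cluster C, both transcription factors of the NF-E2 family, were higher (differences 1.07 and 1.30; limma adjusted p = 0.00468 and 0.0254). Copz2, a coat protein gene, was lower by limma (difference -0.57, adjusted p = 0.0456), as was Ttll6, a tubulin-modifying enzyme gene (adjusted p = 0.0426). Only 1 of the 3 Nod1 +/- readings of Ttll6 was well above background, so it was tested through its Nod1 -/- signal and no size is given. Over the lists of cofactors, retinoic acid, chromatin, patterning, flanking and noncoding genes, 14 of 73 tested genes passed, close to the background share. This count leaves out Hoxb5os and Hoxaas2, members of the noncoding list whose probes carry other names in the array file. Both passed among all probes, as given above.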

How the data were processed

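Per the file headers, the deposited scanner files give each spot as a background-subtracted intensity on a linear scale made by Agilent Feature Extraction 10.7.1.1, with probe positions on mm9. Version 9.5.1.1 is named instead in the submitters' processing notes. The authors' deposited values for the whole series, also intensity by the authors, have a median of 33.4 in every column. How they were scaled is not given in the sources used here, and they served as an alternative. Of these columns, 0 lacked a sample.

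Control and outlier-flagged spots were left out. The log2 of the processed signal was averaged over spots of a probe, and from it was taken the 75th percentile of all non-control probes of that array. Of 55681 probes 134 were dropped because some array had no usable spot for them. No spot of a non-control probe was saturated. Probes well above background on at least 3 of 6 arrays were kept (30166), and the brightest kept probe by mean stood for its gene. Of 34797 names, 19985 matched a RefSeq symbol, 335 a synonym and 2073 an accession, and 12404 kept the file's name.

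Genotypes were compared with limma 3.58.1 (lmFit, eBayes) in R 4.3.3. Differences are Nod1 +/- minus Nod1 -/-, and p-values were adjusted by Benjamini-Hochberg across the whole table, with a threshold of 0.05. The fit was tested on simulated data. Text was parsed in R (data.table, version 1.17.8), and figures were made in matplotlib 3.10.9. Values on each array are given for genes past the threshold and, in each cluster, for the highest-numbered and the most variable tested gene. From each list of cofactors, retinoic acid, chromatin, patterning, flanking and noncoding genes, up to 4 members past the threshold are named by smallest p. Where none passed, 2 are named, and Stra6 is an addition. For marker lists with no member past the threshold, summed levels are given instead. Marker lists not described above are brown fat (1 of 8 tested higher), epithelium (1 of 5 lower), kidney, gonad and adrenal (1 of 7 lower), and thymus and parathyroid (0 of 5). Meis1 and the noncoding transcripts are shown by array as an addition. Further, 1 Hox gene and 1 marker gene are not reported here, and counts of Hox genes leave that gene out. The members, lists and rule were chosen with earlier results of these data known. Alternatives covered background correction, scaling, probe filters, probes of a gene, the variance model, blocks, Xist signal as a covariate, the value table, a 2-fold minimum and left-out arrays.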

Additional observations from a re-analysis of the deposited data

How the results depend on the processing

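The count of Hox genes past the threshold by limma, 2 at first (of 4012 genes in all, and 14 in the pathway lists), was 0 (1636 and 5) without a filter on dim probes and 0 (1033 and 2) in the fit blocked by slide row. It was 0 (193 and 0) at a 2-fold minimum and 0 (641 and 1) without the first replicate of both genotypes. It was 4 with probes well above background on all 6 arrays (4279 of 18803 genes in all), 4 with an intensity trend and robust prior (4744) and 7 with array weights (6016 of 21478). With Xist signal as a covariate it was 1, of 2281 genes. Leaving out each array in turn gave 0 to 5 Hox genes, 1459 to 3387 genes in all and 6 to 12 list members. Scaling to the median over all non-control probes, chosen after seeing the data, moved the median of all genes from -0.10 to 0.01 and left 0 Hox genes of 2506 genes, 63.0% of them higher in Nod1 +/- against 41.0% before. The Hox median was then -0.29, with 19 of 24 below 0. Blocked by slide row, 17 of 24 were below 0, and Hoxa5 (0.15), Hoxa6 (0.13), Hoxb7 (0.08) and Hoxc9 (0.12) reversed. The causes were not tested. Of 21 fits, with the first included and the 2-fold minimum and the test of every probe left out, Hoxb2 passed in 13 and Hoxa2 in 11, both below 0 throughout. At an unadjusted p under 0.05 the first fit had 6 Hox genes (25%), against 35.6% of all genes. Deviations of arrays with the same replicate number correlated at 0.08, 0.28 and 0.11, against -0.31 to 0.13 for the other combinations. With 3 arrays per genotype these values cannot decide whether the replicate numbers paired the arrays. With a replicate block 4040 genes passed, and 2 Hox genes, with Hoxb3 in place of Hoxa2 (adjusted p = 0.0595). Dim posterior probes limit what can be said of groups 10 to 13, and 3 arrays per genotype limit precision.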
